A study of Homo sapiens with 6 samples.

Results

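The interleukin-1 family was followed through 10 genes, chosen by name: the ligands IL1A, IL1B, IL36G, IL18 and IL33, the antagonists IL1RN and IL36RN, and the receptor genes IL1R1, IL1RAP and IL1R2. All 10 were measured, each by 1 probe set, among 18404 genes on the arrays. The arrays held RNA of HaCaT, a human keratinocyte line that became immortal spontaneously, collected 72 hours after lentiviral transduction. The hairpin RNA of 3 samples targeted TP63 (shTP63), which encodes p63, a transcription factor of the basal layer of stratified epithelia, and 3 samples received a control vector (shControl). Both groups were therefore virus-treated cells of a single line, and the labels give neither the hairpin sequence nor whether more than 1 hairpin was used. Nothing in the labels says that replicates were separate cultures, so the spread behind each p-value may be technical only. The level of TP63 was not analysed here, the knockdown is therefore unchecked, and directions rest on the labels. The stated purpose of the series concerns the action of p63 and the chromatin remodelling subunit ACTL6A on Hippo-YAP in squamous carcinoma.

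Interleukin-1 alpha and beta are alarm cytokines that bind the receptor encoded by IL1R1, which then recruits the shared accessory chain encoded by IL1RAP and signals through MYD88 to NF-kappa-B. The pathway is held back at several points: IL1RN encodes an antagonist that occupies the receptor without recruiting the accessory chain, and IL1R2 encodes a decoy receptor that binds ligand without signalling. Interleukin-36 gamma uses the IL1RL2 receptor with the same accessory chain and is opposed by the antagonist encoded by IL36RN, while interleukin-18 and interleukin-33 have receptors of their own. Epidermal keratinocytes are known for storing interleukin-1 alpha and for making an intracellular form of the IL1RN antagonist.

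Values are log2 of the deposited intensity, and differences are shTP63 minus shControl. Across all 18404 genes, 41.5% passed an adjusted p of 0.05 in limma, of which 16.4% of all genes rose and 25.1% fell, and in 51.4% the 2 groups did not overlap. With each array centred on its median, 1782 genes rose and 7932 fell, against 3015 and 4619 on the deposited scale, and falls made up 81.7% of the calls, against 60.5%. That centring moved the median difference of all genes to -0.12, against -0.01. The array medians were 187 to 190 intensity units in shTP63 and 173 to 177 in shControl, and the 3 arrays per group limit the precision. A log2 level of 6.81, the 95th percentile of 360 olfactory receptor genes, served as a measure of background, under which a change is compressed. All 11 measured keratinocyte markers lay above it, of which 2 rose and 5 fell. Their summed linear intensity was 56456 to 57620 in shTP63 and 63785 to 66036 in shControl. Of 18 leukocyte markers 13 lay under it in both groups, among them the pan-leukocyte gene PTPRC at 4.27 ± 0.053 in shTP63 and 4.31 ± 0.002 in shControl (SD, n = 3 each). The summed linear intensity of the leukocyte markers was 2431 to 2608 in shTP63 and 1937 to 2113 in shControl. Within that list CD14, CD68 and TYROBP rose and KIT fell, the 4 being named with their values in view. KIT lay under the background level in both groups. CD68 was the brightest, at 9.74 in shTP63 and 8.99 in shControl, and so weighs most in the sum. Of 8 fibroblast, 4 endothelial and 4 melanocyte markers, 3, 3 and 2 lay under background in both groups. The part of any marker list in the results was not tested. On bulk arrays, fewer cells making a transcript and less transcript per cell cannot be told apart.

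Of the 10 family genes, 4 rose (IL1A, IL1B, IL36G and IL1R2), 3 fell (IL18, IL1RN and IL1R1) and 3 did not pass (IL33, IL36RN and IL1RAP). Over all genes, 16.4% rose and 25.1% fell. In the 7 that passed, the groups did not overlap, as was so for 51.4% of all genes. The median difference of the 10 was 0.04, against -0.01 over all genes. It was -0.01 after quantile normalization of all probe sets and -0.07 after centring, where the median of all genes was -0.08 and -0.12. Quantile normalization over probe sets with 1 gene gave 0.05, against -0.006 over all genes. The family did not move one way: IL1A and IL1B were higher, while their antagonist and their signalling receptor were lower.

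**Figure D1:**
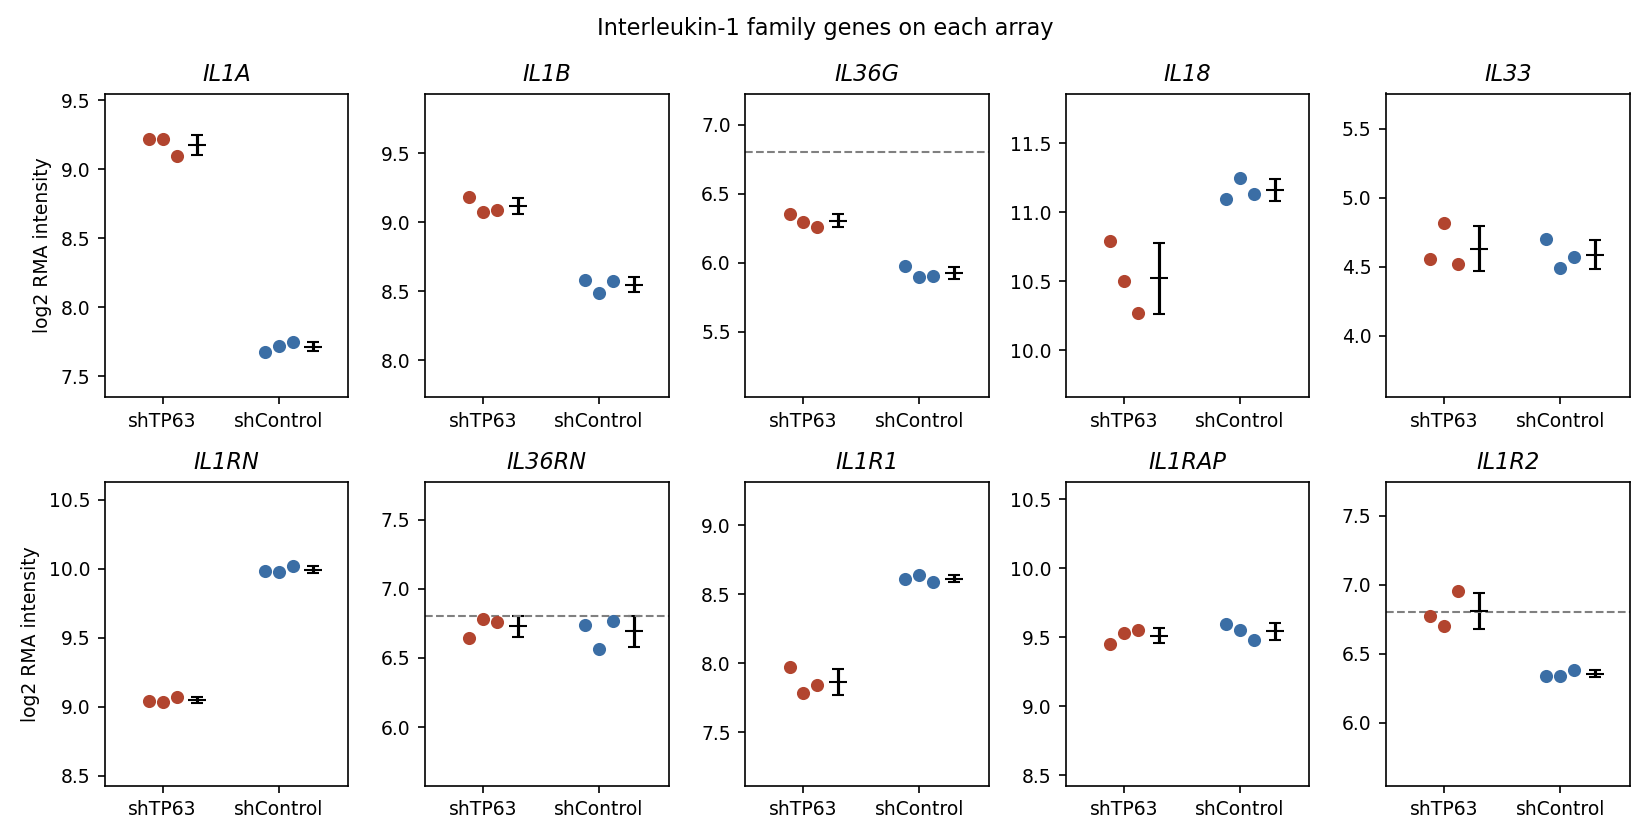
Log2 RMA intensity of each of the 10 genes on every array, with shTP63 (red) left of shControl (blue). Points are arrays, bars are the mean and SD of 3 arrays, every panel spans the same 2.2 log2 units, and the dashed line is the background level of 6.81. The groups lie apart in 7 panels and overlap for IL33, IL36RN and IL1RAP.

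The agonist genes IL1A and IL1B are neighbours on chromosome 2, and IL1RN lies at the far end of the same cluster. The windows around their annotated transcript starts are shown because these 3 genes carry the opposite changes of agonist and antagonist. Each runs from 250 bases before to 50 bases after a start, from RefSeq on GRCh38.p14, 5′ to 3′ along the gene, and capitals mark the AP-1 site TGACTCA on either strand. IL1A and IL1RN have further annotated starts, whose windows were searched as well. 
IL1A (chr2:112784444-112784743, - strand): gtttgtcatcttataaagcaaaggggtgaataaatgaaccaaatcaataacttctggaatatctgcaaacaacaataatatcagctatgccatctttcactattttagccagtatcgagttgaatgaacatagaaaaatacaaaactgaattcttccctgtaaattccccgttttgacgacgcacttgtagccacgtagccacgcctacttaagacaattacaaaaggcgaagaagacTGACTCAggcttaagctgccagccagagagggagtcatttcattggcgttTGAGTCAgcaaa
IL1B (chr2:112836730-112837029, - strand): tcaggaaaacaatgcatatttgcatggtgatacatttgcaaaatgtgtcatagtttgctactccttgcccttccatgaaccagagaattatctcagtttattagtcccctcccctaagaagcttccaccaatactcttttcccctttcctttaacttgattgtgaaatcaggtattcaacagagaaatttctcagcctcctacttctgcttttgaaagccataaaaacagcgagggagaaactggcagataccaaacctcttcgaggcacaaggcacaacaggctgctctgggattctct
IL1RN, upstream start (chr2:113117721-113118020, + strand): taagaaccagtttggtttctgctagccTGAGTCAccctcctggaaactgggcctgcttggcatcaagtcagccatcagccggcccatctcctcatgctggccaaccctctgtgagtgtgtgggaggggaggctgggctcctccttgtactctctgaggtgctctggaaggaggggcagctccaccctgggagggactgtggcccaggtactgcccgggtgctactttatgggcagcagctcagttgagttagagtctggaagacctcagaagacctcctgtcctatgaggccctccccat
IL1RN, downstream start (chr2:113127239-113127538, + strand): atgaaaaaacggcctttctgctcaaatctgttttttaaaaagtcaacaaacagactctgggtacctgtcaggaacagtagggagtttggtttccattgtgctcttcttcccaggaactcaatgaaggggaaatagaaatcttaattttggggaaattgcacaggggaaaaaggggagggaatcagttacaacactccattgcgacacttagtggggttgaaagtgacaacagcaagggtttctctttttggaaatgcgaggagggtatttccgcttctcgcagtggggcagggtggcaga
The IL1A window held 2 AP-1 matches, starting at base -12 and at base 39 counted from the transcript start. The window of the other annotated IL1A start overlaps it and holds the same sites, at bases -105 and -55 from that start. The window of the upstream IL1RN start held 1, at base -223, and neither the IL1B window nor the other IL1RN windows held any. AP-1 matches were present in 4.95% of all 35116 such windows. The NF-kappa-B consensus, present in 11.3% of all windows, and the p53-family decamer, present in 6.63%, had no match in any window of these 3 genes. No match was found to overlap another. A match describes letters in the window only, and no binding was measured.

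IL1A, the alarmin that keratinocytes hold preformed, had the largest change among the 10. It stood at 9.22, 9.22 and 9.09 in shTP63, against 7.68, 7.72 and 7.75 in shControl. The lowest shTP63 array was 1.35 log2 units above the highest shControl array. The difference was 1.46 ± 0.050 (SE), or 2.76-fold, with a limma adjusted p of 3.60e-07, and 35 of the 18404 genes rose more. IL1B, the secreted cytokine that caspase-1 matures, was at 9.18, 9.08 and 9.09 in shTP63, against 8.58, 8.48 and 8.57 in shControl. Its groups were also apart, by a smaller step of 0.57 ± 0.050 (SE), or 1.48-fold (limma adjusted p = 3.465e-05). IL36G, an epithelial cytokine prominent in psoriatic skin, was at 6.35, 6.30 and 6.26 in shTP63, against 5.98, 5.90 and 5.91 in shControl. It rose by 0.38 ± 0.046 (SE), or 1.30-fold (limma adjusted p = 0.000211). All 6 IL36G values lay under the background level of 6.81, which leaves the size of its rise uncertain. In the dimmest of 5 equal bins of mean level, which holds IL36G, 6.36% of genes rose, whereas 18.0% rose in the bin of IL1A and 18.5% in that of IL1B.

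IL18 went the other way from the interleukin-1 ligands. This cytokine, which drives interferon gamma production and is made as a precursor by resting keratinocytes, was at 10.79, 10.50 and 10.27 in shTP63, against 11.10, 11.25 and 11.13 in shControl. The shTP63 arrays spread widely (SD 0.26) but all lay below the shControl arrays (SD 0.080). IL18 fell by 0.64 log2 units (SE 0.113), or 1.56-fold (limma adjusted p = 0.00161). Its standard error was the largest among the 10 genes. IL18 lies in the bin of highest levels, where 44.0% of genes fell. IL33, a nuclear alarmin of barrier tissues, was at 4.55, 4.82 and 4.52 in shTP63, against 4.70, 4.49 and 4.57 in shControl. These values overlapped, lay far under the background level, and gave a difference of 0.04 with a 95% interval of -0.15 to 0.23 (limma adjusted p = 0.740).

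IL1RN, the receptor antagonist, had the largest fall among the 10 and the smallest standard error. It was at 9.04, 9.04 and 9.07 in shTP63, against 9.98, 9.98 and 10.02 in shControl. The level fell by 0.94 log2 units (SE 0.041), or 1.92-fold (limma adjusted p = 1.01e-06), and 56 genes fell more. Falls were common at this level, making up 43.0% of genes in the bin of IL1RN. The probe set is annotated to several IL1RN transcripts, so secreted and intracellular forms are not told apart. IL36RN, the antagonist of interleukin-36, was at 6.65, 6.78 and 6.76 in shTP63, against 6.74, 6.57 and 6.77 in shControl. The groups overlapped under the background level, and the difference of 0.04 had a 95% interval of -0.11 to 0.18 (limma adjusted p = 0.701).

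Among the receptors, the signalling chain and the decoy changed in opposite directions. IL1R1, the signalling receptor, was at 7.97, 7.79 and 7.85 in shTP63, against 8.61, 8.64 and 8.59 in shControl. It fell by 0.75 log2 units (SE 0.055), or 1.68-fold (limma adjusted p = 1.42e-05), in a bin of mean level where 25.4% of genes fell. IL1R2, the decoy, was at 6.77, 6.70 and 6.95 in shTP63, against 6.34, 6.34 and 6.39 in shControl. It rose by 0.45 ± 0.065 (SE), or 1.37-fold (limma adjusted p = 0.000495), with all shControl values and 2 of the shTP63 values under the background level, so its size is uncertain. IL1RAP, the accessory chain shared by the receptors for interleukin-1, interleukin-33 and interleukin-36, was at 9.45, 9.53 and 9.55 in shTP63, against 9.60, 9.55 and 9.48 in shControl. Its groups overlapped at a level well above background, and the difference of -0.03 had a 95% interval of -0.15 to 0.08 (limma adjusted p = 0.667). On the deposited scale that interval limits the IL1RAP difference between these arrays to 0.15 log2 units either way, given a spread that may be technical only. IL1RAP nevertheless passed as lower once each array was centred on its median (-0.14, limma adjusted p = 0.0371).

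**Figure D2:**
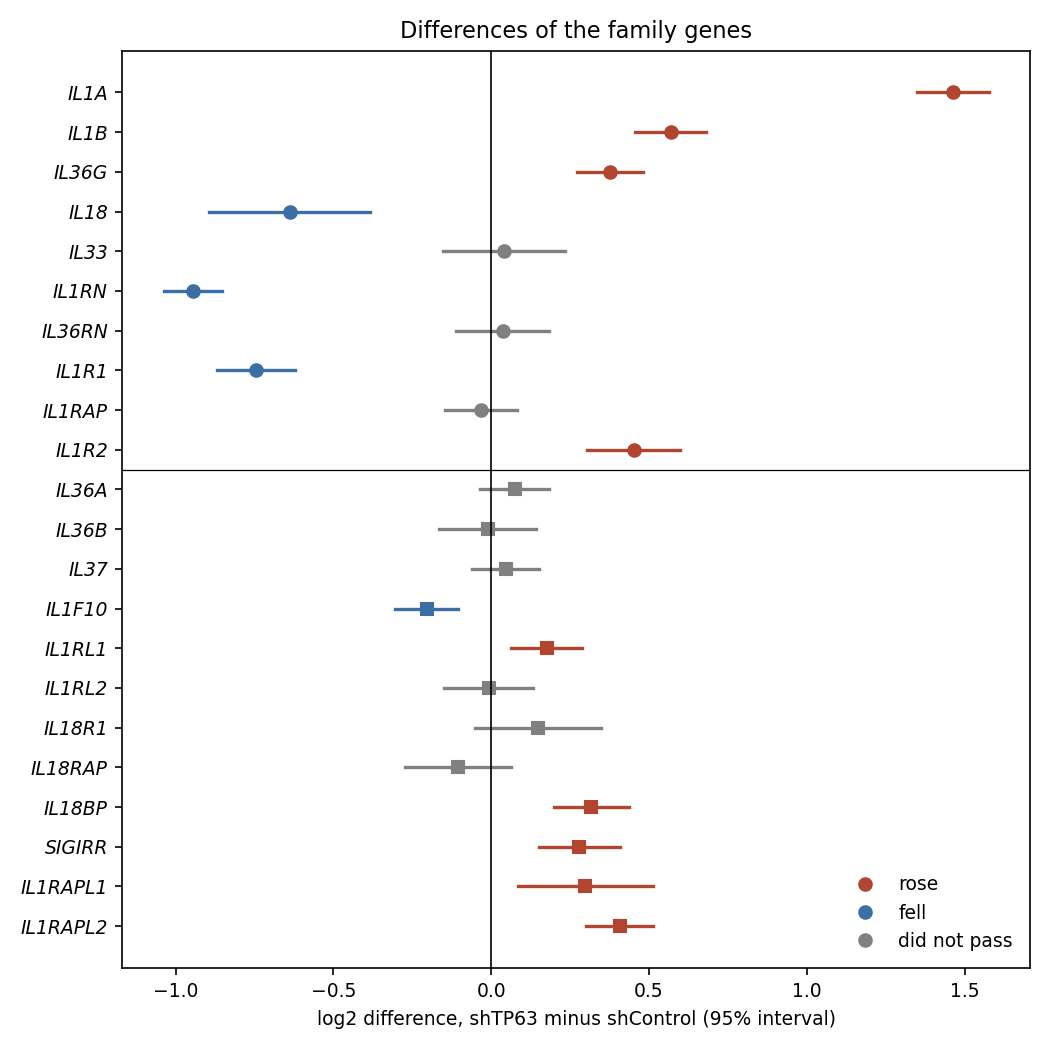
Log2 difference, shTP63 minus shControl, with its 95% interval from limma, for the 10 genes (circles, above the line) and 12 further ligand, receptor and decoy genes of the family (squares, below it). Red marks genes that rose, blue those that fell and grey those that did not pass. The largest differences are those of IL1A at 1.46 and IL1RN at -0.94, and no gene below the line differs by more than 0.41.

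An agonist and its antagonist read on the same array give a difference that a shift shared by the whole array cannot move. IL1A minus IL1RN was 0.17, 0.18 and 0.02 log2 units in shTP63, against -2.30, -2.26 and -2.28 in shControl. The balance of the pair thus differed by 2.41 ± 0.054 (SE), or 5.30-fold, in favour of IL1A in shTP63. IL1B minus IL1RN was 0.14, 0.04 and 0.02 in shTP63, against -1.40, -1.50 and -1.45 in shControl, a change of 1.51 ± 0.046 (SE), or 2.86-fold. IL36G minus IL36RN was -0.29, -0.49 and -0.50 in shTP63, against -0.77, -0.66 and -0.86 in shControl. That change, 0.34 ± 0.089 (SE), comes from probe sets under the background level. IL1R1 minus IL1R2 was 1.20, 1.09 and 0.90 in shTP63, against 2.27, 2.31 and 2.20 in shControl, so it fell by 1.20 (SE 0.094), a size that is uncertain because IL1R2 lay under the background level on 5 of the 6 arrays. The groups did not overlap in any of the 4 pairs. The exact two-sided permutation p was 0.1 for each pair, also adjusted over the 4, which is the smallest that 3 against 3 arrays allow. In the pairs with IL1RN and in IL1R1 minus IL1R2 this outcome was fixed in advance. Both genes of each such pair already had groups lying apart in opposite directions, so these tests add no support to the calls on single genes. The values within a pair come from different probe sets, so their sign on one array is not a ratio of transcripts, and only the change between groups is read.

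**Figure D3:**
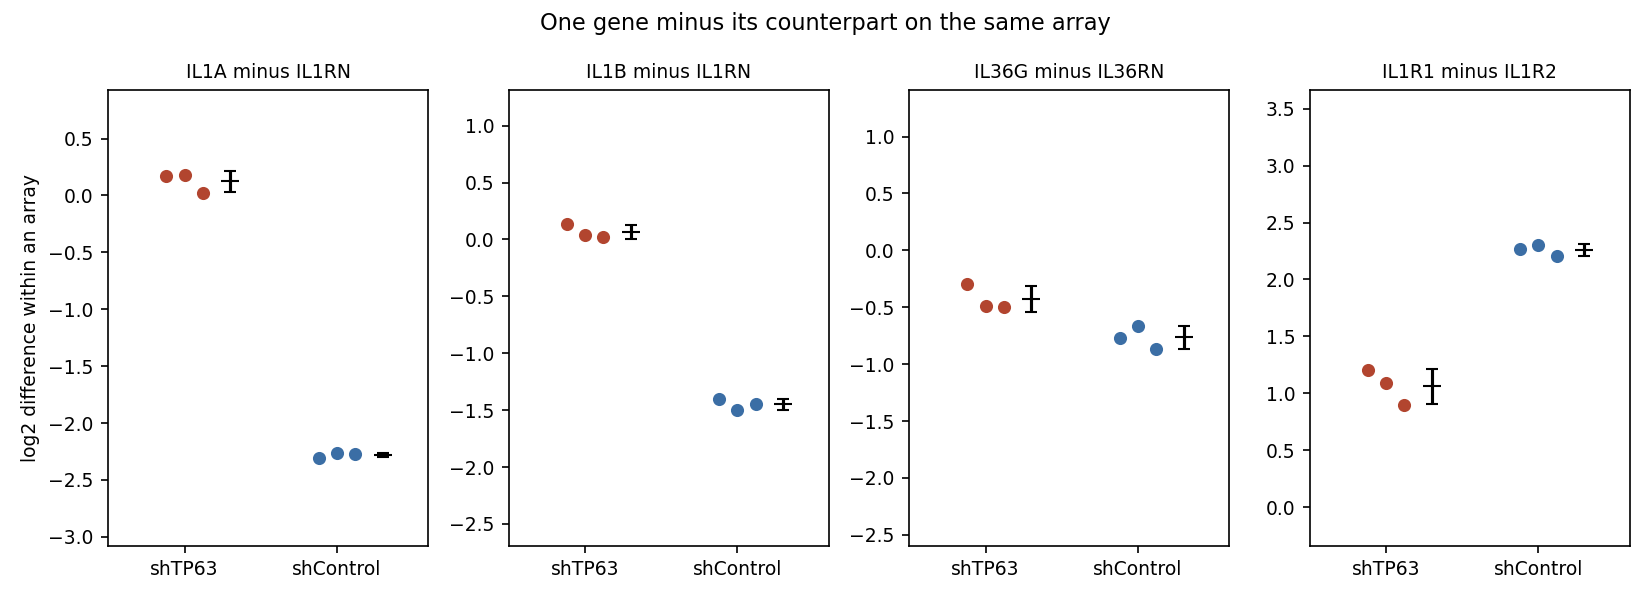
Log2 value of one gene minus that of its counterpart on the same array, with shTP63 (red) left of shControl (blue); bars are the mean and SD of 3 arrays, and every panel spans 4 log2 units. The 3 pairs of agonist and antagonist are higher in shTP63, and IL1R1 minus IL1R2 is lower.

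Genes of one cluster changed in opposite directions, among the ligand genes and among the receptor genes. Along chromosome 2 the RefSeq order of the ligand cluster is IL1A, IL1B, IL37, IL36G, IL36A, IL36B, IL36RN, IL1F10 and IL1RN. The pair at one end rose and the pair at the other end fell, since IL1F10, which encodes interleukin-38, fell by 0.20 (SE 0.043, limma adjusted p = 0.00449) at a level under background. Between them IL36G was the single gene that passed. IL37, which encodes an anti-inflammatory member, differed by 0.05 (limma adjusted p = 0.489). The agonists IL36A and IL36B differed by 0.07 and -0.01 (limma adjusted p = 0.267 and 0.924), and IL36B and IL37 were under background in both groups. In the receptor cluster on the same chromosome, IL1R2, which rose, is followed by IL1R1, which fell, and then by IL1RL2, IL1RL1, IL18R1 and IL18RAP. The interleukin-36 receptor gene IL1RL2 differed by -0.01 with a 95% interval of -0.15 to 0.13.

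Of 8 further receptor and decoy genes of the family, 5 rose and 0 fell, against 16.4% and 25.1% of all genes, and their median difference was 0.23 (all genes -0.01). IL18BP, a secreted protein that neutralises interleukin-18, was at 7.50, 7.48 and 7.57 in shTP63, against 7.17, 7.14 and 7.28 in shControl. It rose by 0.32 ± 0.052 (SE, limma adjusted p = 0.00112). SIGIRR, an inhibitory receptor of the family, rose by 0.28 ± 0.056 (SE, limma adjusted p = 0.00343), with 9.65, 9.71 and 9.81 in shTP63, against 9.48, 9.37 and 9.49 in shControl. IL18, its soluble binding protein and this inhibitory receptor therefore changed on the same arrays, the cytokine downward and the other genes upward. IL1RL1, the interleukin-33 receptor, IL1RAPL1 and IL1RAPL2 rose by 0.18, 0.30 and 0.41 with both groups under background, so these sizes are uncertain. The calls on IL1RL1 and IL1RAPL1 depended on single arrays and on the scaling. After centring on the array median IL1RL1 differed by 0.07 (limma adjusted p = 0.274) and IL1RAPL1 by 0.19 (0.0927), and after quantile normalization of all probe sets by 0.10 (0.123) and 0.20 (0.0987). IL1RL1 also lost its call with a trended robust prior (0.0592), and IL1RAPL1 with cyclic loess (0.0515). IL1RL1 lost its call without shTP63 replicate 2 (adjusted p = 0.0547), without shTP63 replicate 3 (0.0537) and without shControl replicate 2 (0.0739). IL1RAPL1 lost it without any 1 of 5 arrays (adjusted p = 0.0584 to 0.0994), all but shTP63 replicate 1. The receptor genes IL18R1 and IL18RAP differed by 0.15 and -0.11 and did not pass (limma adjusted p = 0.220 and 0.299). IL18R1 passed as higher without shControl replicate 3 (0.25, limma adjusted p = 0.0219), and IL18RAP passed as lower once each array was centred on its median (-0.21, limma adjusted p = 0.0267).

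Genes that carry or restrain the signal from the receptor, counted together, were mostly lower or did not pass. Of 22 measured of 24 listed, 1 rose and 11 fell, against 16.4% and 25.1% of all genes, and their median difference was -0.14. Most of these genes lie in the bins of mean level that hold IL1RN and IL18, where 43.0% and 44.0% of genes fell. The share of falls is therefore nearer to that of genes of like level than to that of all genes. Centring gave 1 rise and 16 falls (median -0.24), and quantile normalization restricted to probe sets with 1 gene gave 1 rise and 9 falls (median -0.09). The rise was that of IRAK2, a receptor-proximal kinase, at 7.89, 7.78 and 7.85 in shTP63, against 6.90, 7.07 and 7.09 in shControl. Its difference of 0.82 ± 0.061 (SE) was 1.77-fold (limma adjusted p = 1.48e-05). IRAK2 and TNIP1 are also on the list of response genes below and are counted in both. TOLLIP, an inhibitor of the receptor-kinase complex, fell by 0.43 (SE 0.052) and PELI2, a ubiquitin ligase of the same complex, fell by 0.39 (SE 0.053). The adaptor MYD88, named after its value was seen, was at 10.44, 10.43 and 10.36 in shTP63, against 10.76, 10.70 and 10.67 in shControl, and fell by 0.30 (SE 0.046, limma adjusted p = 0.000720). The kinase MAP3K7 and the ubiquitin ligase TRAF6, also named after their values were seen, differed by -0.07 and -0.10 and did not pass (limma adjusted p = 0.289 and 0.120).

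CASP1, CASP4 and PYCARD, which act in the maturation of IL1B and IL18, were lower. Of 28 measured of 33 listed processing and release genes, 2 rose and 9 fell, against 16.4% and 25.1% of all genes, and the median difference was -0.05, against -0.01 over all genes. The share that fell is near that of all genes. CASP1, the protease that activates both cytokines, was at 6.79, 6.95 and 6.81 in shTP63, against 7.81, 7.97 and 8.001 in shControl. It fell by 1.08 log2 units (SE 0.065), or 2.11-fold (limma adjusted p = 5.21e-06), to about the background level, so the fold may be compressed, and 29 of all genes fell more. CASP4, the inflammatory caspase that senses cytosolic lipopolysaccharide, fell by 0.54 (SE 0.059, limma adjusted p = 0.000118). PYCARD, the adaptor ASC that links sensors to caspase-1, was at 10.13, 10.08 and 10.20 in shTP63, against 10.53, 10.51 and 10.57 in shControl, and fell by 0.40 (SE 0.047, limma adjusted p = 0.000172). CARD16, whose sequence is close to the CASP1 prodomain so that the probe sets may share signal, fell by 0.54 (SE 0.102). The 2 that rose, named with their values in view, were the gasdermin GSDMB (0.26 ± 0.053 SE) and the protease PRTN3 (0.15 ± 0.052 SE). The count of rises was 1 without any 1 of 4 arrays: shTP63 replicate 1 or 2, or shControl replicate 2 or 3. The pore-forming GSDMD, also named after its value was seen, differed by 0.04 (limma adjusted p = 0.627), and the sensor NLRP3 differed by -0.03 under background (limma adjusted p = 0.680).

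Genes known to respond to interleukin-1 or interleukin-36 in keratinocytes were higher. Of 40 measured of 45 listed, 33 rose, 0 fell and 7 did not pass, against 16.4% and 25.1% of all genes, with a median difference of 0.77. Under the background level in both groups lay 7 of the 40. CXCL3, IL20 and VNN1, named for that level, are among them and are counted as rises of uncertain size. The list was drawn up with results of these arrays known, and many of its genes respond to other stimuli too, so its count does not point to a ligand. The listed rises ran up to 3.40 for SAA2, an acute-phase gene whose sequence is close to that of SAA1 (3.07). Complement factor B, CFB, rose by 2.32, the chemokine gene CXCL8 by 2.30 and the prostaglandin synthase gene PTGS2 by 1.90. CFB has 3 probe sets and SAA2 has 2, and the values given are those of the highest-mean probe set. Over the 15 alternatives the lowest differences were 1.65 for CFB and 2.61 for SAA2, against 2.19 for CXCL8 and 2.95 for SAA1. With an array left out, CFB and SAA2 were at the lowest 2.26 and 3.35. The 4 genes TNFAIP3, NFKBIA, ZC3H12A and NFKBIZ, chosen after their values were seen, are known as feedback regulators of NF-kappa-B signalling, and rose by 1.67, 0.39, 0.90 and 0.39. TNIP1, another such regulator on the list, differed by -0.01 and did not pass (limma adjusted p = 0.867). The 33 response genes that rose and IL1A were higher in the same samples in which IL1R1, MYD88 and CASP1 were lower. MYD88 lies in the bin of highest levels, where 44.0% of genes fell, and 2285 genes fell more than it did.

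**Figure D4:**
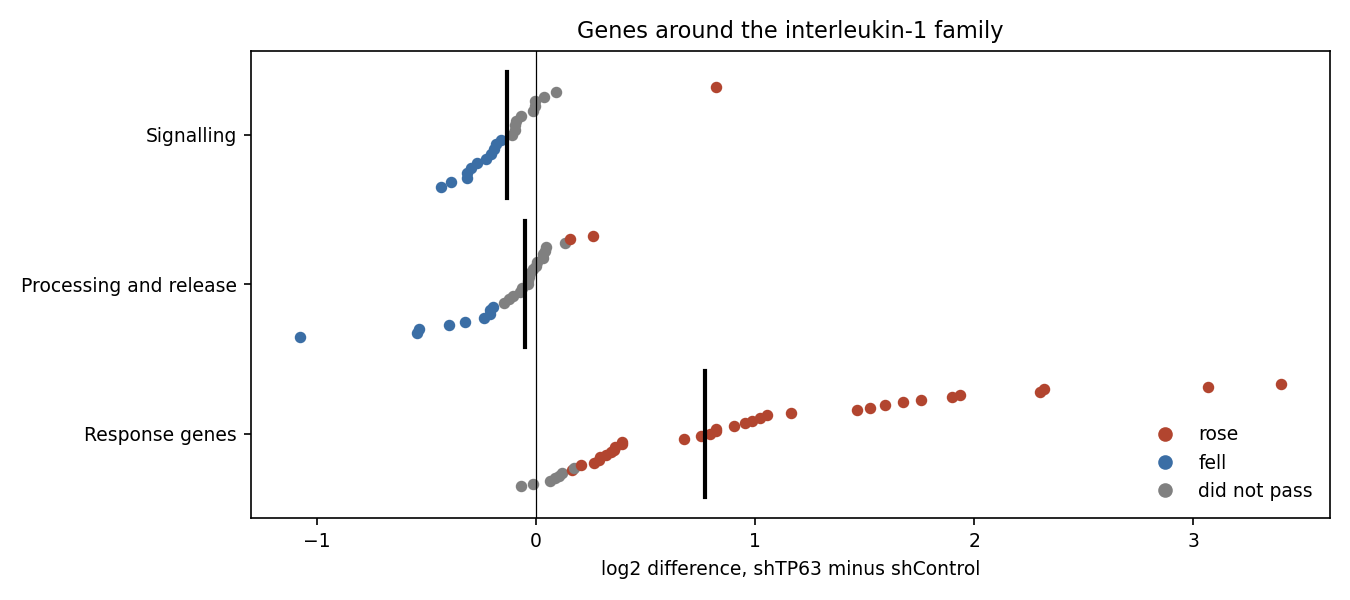
Log2 difference, shTP63 minus shControl, of each measured gene of 3 lists, in rows of 22 signalling, 28 processing and release, and 40 response genes. Each point is a gene, coloured red where it rose, blue where it fell and grey where it did not pass, and the black bar is the list's median (-0.14, -0.05 and 0.77). IRAK2 and TNIP1 stand in both the signalling and the response row.

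By distance over the 6 arrays between log2 values centred on each gene's mean, the genes most like IL1A were the chemokine gene CXCL1 (distance 0.12), the cytokine gene IL6 (0.13) and TFPI2, a serine protease inhibitor gene (0.15). They differed by 1.46, 1.52 and 1.52. Those most like IL1RN were HECW2 (0.08), FRY (0.08) and ERP27 (0.09), which differed by -0.90, -0.90 and -0.98. With 6 arrays in 2 groups this likeness is mostly the size of the change between groups, and it is given as a description.

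**Figure D5:**
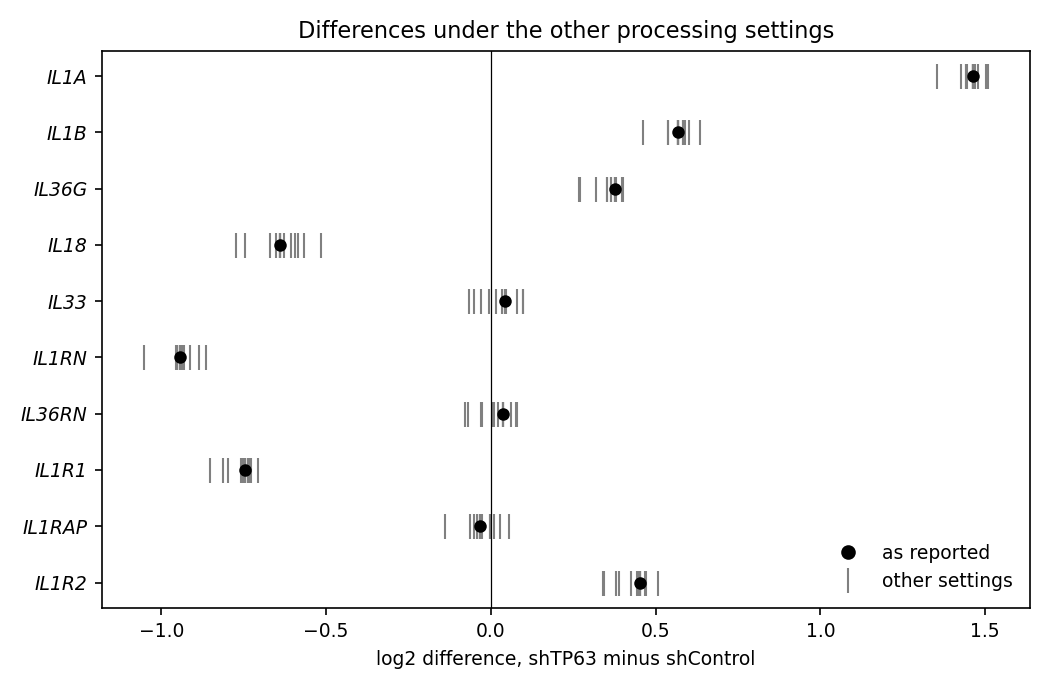
Log2 difference, shTP63 minus shControl, of the 10 genes as reported (black points) and under the other processing settings (grey ticks). The 7 genes that passed stay on their side of 0, IL1A between 1.35 and 1.51 and IL1RN between -1.05 and -0.86, while IL33, IL36RN and IL1RAP cross 0.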

How the data were processed

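The deposited values were RMA intensities on a linear scale, made by the authors with RMA in R 2.15.1 per the submitters' processing notes, and log2 was taken of them here. RMA corrects background, normalizes arrays to a common distribution and summarises probes, so raw-probe background correction could not be varied here. Labelling started from oligo-dT, per the labels' protocols, although the arrays are of a whole-transcript type, so the labelling used is uncertain. Probe sets (32321) were named by the platform annotation supplied: 19158 had 1 gene, 1388 several and 11775 none listed, and only those with 1 gene were used. The highest-mean probe set stood for each of 18404 genes. No value column was left unused. The array's genome build is not given in the sources used here. limma 3.58.1 in R 4.3.3 (lmFit, eBayes, two-sided, no covariate) compared the groups, and p-values were adjusted over all genes by Benjamini-Hochberg, with 0.05 as the threshold. Of these steps only the limma fit was tested on simulated data, in which far fewer genes changed than were called here. The permutation test and the motif search were checked on small inputs with known answers.

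Members, lists and tests were chosen with earlier results of these data known. Named genes were the 10 members, the further family genes, in each longer list the 3 with the smallest adjusted p and the 3 with the largest change among those past the threshold, and the genes most like IL1A and IL1RN. Others are marked where named, except PTPRC, NLRP3 and TNIP1, which did not pass and also fall outside this rule. Listed genes without a measured probe set, 12 over the 5 lists, were not analysed here. Promoter windows of 300 bases came from RefSeq and were found for 9 of the 10 genes. The 15 alternatives were a block for replicate number, 4 other scalings, a filter on dim genes, the mean of all probe sets, a trended robust prior, a threshold of 0.01 and each of 6 arrays left out.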

Additional observations from a re-analysis of the deposited data

How the results depend on the processing

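The 7 family genes that passed kept direction and call in all 103 fits run over the 15 alternatives. IL36G and IL1R2 were not tested once the dimmest 40% of genes were left out, where 2 members rose. Centring on the array median gave 1782 rises and 7932 falls over all genes, 3 rises and 1 fall among the further receptors, and 1 rise and 15 falls among processing genes. Quantile normalization of all probe sets gave 3 rises among the further receptors and 1 among processing genes, as the threshold of 0.01 also did, and the replicate block gave 1 among processing genes. Cyclic loess gave 2 rises among signalling genes. Without the dimmest 40% of genes there were 0 rises among signalling genes, 1 among the further receptors and 0 falls among the further ligands, since fewer genes were tested. With each array left out in turn the further receptors had 3 to 5 rises and the processing genes 1 to 2.

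Several genes that did not pass changed sign. IL33 was -0.031 after quantile normalization, -0.065 after centring and -0.051 to 0.099 with an array left out. IL36RN was -0.078 after quantile normalization, -0.071 after centring, -0.029 after cyclic loess and -0.027 to 0.079 with an array left out. IL1RAP was 0.0099 after quantile normalization, 0.029 with cyclic loess and 0.055 with quantile normalization over probe sets with 1 gene. IL36A was -0.040 and -0.033, and IL37 -0.029 and -0.062, after quantile normalization and centring. With an array left out IL36B ran from -0.066 to 0.051 and IL1RL2 from -0.067 to 0.036. Centring subtracts 1 value from each array, so it lowered the difference of every gene alike, as it did the median of all genes (-0.01 to -0.12). The cause of the other changes was not tested.

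Deviations from the group means correlated at -0.15, -0.04 and 0.13 between same-numbered replicates. Between differently numbered ones they ran from -0.14 to 0.16. With 3 arrays per group these correlations cannot show whether samples were paired. With the replicate number as a block 2832 genes rose and 4333 fell, and IL1A, IL1RN and the other members kept their calls. In the within-array pairs the paired exact p was 0.25, the smallest for 3 pairs, and the changes with an array left out were 2.38 to 2.46 for IL1A minus IL1RN, 1.48 to 1.54 for IL1B minus IL1RN, 0.27 to 0.39 for IL36G minus IL36RN and -1.27 to -1.12 for IL1R1 minus IL1R2. Dim signal limits IL33, IL36G, IL36RN and IL1R2, and 3 arrays per group limit the rest.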

Other observations

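The same motif search covered the other family genes with a promoter window. Over 18 windows of 9 genes, the NF-kappa-B consensus matched in 1 IL1R2 window and 1 IL36RN window, and the p53-family decamer in the window of 1 of 4 IL1R1 starts. The AP-1 site matched in both IL1A windows, which overlap and share the same sites, and in 1 IL1RN window. These matches are descriptions of sequence and were not set against the expression values by a test.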
